A study of Mus musculus with 4 samples.

Results

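The genes of 3 ID proteins (Id1, Id2, and Id3) and 3 E proteins (Tcf3, Tcf4, and Tcf12) were followed in scRNA-Seq data of cultured mouse B cells. They were picked by name, as 6 of the 31053 genes in the feature table, and all 6 had UMIs, where a UMI (unique molecular identifier) stands for 1 captured mRNA molecule. The cells were B cells enriched from the spleens of WT mice, which were C57BL/6 per the study's methods and, by the age range given there, adolescent to young adult. Bregs-CpG (2 samples) had been cultured with a CpG B oligonucleotide, an agonist of the receptor TLR9, for 3 days. Bregs-TLR (2 samples) had received the same CpG culture and, in its final 5 hours, also the TLR4 agonist LPS together with the stimulants PMA and ionomycin. The labels do not say whether the replicates came from separate mice, and no untreated B cells were among the 4 samples.

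The cell barcodes carry a library number, 5 to 8, but no sample name, so no library can be called Bregs-CpG or Bregs-TLR. Each library is therefore described on its own, with no test between conditions. Of 19920 barcodes, 18534 cells were kept (at least 1000 genes and less than 10% mitochondrial UMIs), between 4003 and 5621 per library, with 44842982 to 63638158 UMIs per library. Libraries 5 and 6 lay apart from libraries 7 and 8 in much of the transcriptome and also in technical measures. The median cell had 8752 and 8785 UMIs in libraries 5 and 6, and 10355 and 10077 in libraries 7 and 8, and the median mitochondrial share was 7.22% and 7.18% against 4.61% and 4.65%. Among the barcode sequences, 29 occurred in more than 1 library. B cell markers were present in every library, with Cd79a at 1033 to 3239 CPM (UMIs of a gene per 1000000 UMIs of the library), whereas 3 of 6 T cell markers (Cd3e, Cd4, and Cd8a), 3 of 5 myeloid markers, and 4 of 5 NK and ILC markers were listed at 0. The other T cell markers had 31 (Cd3d), 2 (Cd3g), and 83 UMIs (Trac) over all cells, the other myeloid markers 44 (Adgre1) and 3 (Csf1r), and the remaining NK and ILC marker, Il7r, 3160.

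E proteins are basic helix-loop-helix transcription factors that pair with each other and bind E boxes, short DNA motifs of the form CANNTG. In B cells, the E proteins E2A (from Tcf3), E2-2 (from Tcf4), and HEB (from Tcf12) drive commitment to the lineage and keep many B cell genes active. ID proteins have the helix-loop-helix part but lack the basic region, so a pair of an ID and an E protein cannot bind DNA. The ratio of ID to E proteins is therefore commonly used as a measure of how free the E proteins are to act. The values here are mRNA counts, and protein was not measured. Since these genes were proposed with results of the same data known, their levels across libraries are given as a description.

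On GRCm38, Id1 lies at chr2:152736251-152737410 (plus strand), Id2 at chr12:25093799-25097140 (minus), Id3 at chr4:136143497-136145755 (plus), Tcf3 at chr10:80409514-80433647 (minus), and Tcf12 at chr9:71842688-72111871 (minus). RefSeq promoter windows, which run from 250 bases before to 50 bases after a start site, were given for 4 of the 6 genes (Id2, Id3, Tcf3, and Tcf12). Those of Id2 and Id3 lay wholly inside the annotated genes, so no sequence upstream of these genes was covered. All windows were searched on both strands for the E box, the motif that E proteins bind. The windows of Id2 and Tcf3 each held 1 E box, the most upstream of 3 windows of Tcf12 held 1, and the window of Id3 held none, while 72.3% of all 32851 windows held at least 1. The form CAGGTG, preferred by E proteins and found in 20.2% of windows (counting CACCTG, its other strand), was in none of them. A match is only a description of the letters. The parts of these windows outside annotated exons (sequence from RefSeq, GRCm38.p6, exons from GENCODE vM21) are shown 5′ to 3′ on the strand of the gene, with the E box in capitals, at chr12:25096254-25096342 for Id2, which is inside the gene in an intron, chr10:80433648-80433885 for Tcf3, and chr9:72111872-72112069 for Tcf12.
Id2: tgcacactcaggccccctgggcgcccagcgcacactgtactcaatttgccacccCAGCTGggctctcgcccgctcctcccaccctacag
Tcf3: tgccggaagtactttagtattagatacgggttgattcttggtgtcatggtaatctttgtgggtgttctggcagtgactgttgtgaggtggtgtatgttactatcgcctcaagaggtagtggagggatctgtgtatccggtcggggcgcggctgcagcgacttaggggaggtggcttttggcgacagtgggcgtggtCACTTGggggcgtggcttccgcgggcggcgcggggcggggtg
Tcf12: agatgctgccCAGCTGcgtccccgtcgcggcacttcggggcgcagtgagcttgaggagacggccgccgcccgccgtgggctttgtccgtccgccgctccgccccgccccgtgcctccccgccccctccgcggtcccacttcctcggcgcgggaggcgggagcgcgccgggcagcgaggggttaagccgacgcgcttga
Id2 and this window of Tcf12 held CAGCTG, a palindrome, and Tcf3 held CACTTG. The other Tcf12 windows held 2 E boxes and 1 E box, and among these were CACTTG and CAAGTG, which is CACTTG on the other strand.

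Among the ID genes, Id2 and Id1 were the genes that separated the libraries, while Id3 was nearly level. Id2, an inhibitor best known from innate lymphoid and NK cell development, was at 15.4 CPM in library 5 (95% Poisson interval 14.3 to 16.6), 15.0 in library 6 (14.0 to 16.1), 121 in library 7 (119 to 124), and 119 in library 8 (116 to 122). Libraries 7 and 8 were thus far above libraries 5 and 6, and the highest library was 8.07-fold over the lowest. Within each of these pairs the levels did not differ beyond counting error, with a log2 ratio of -0.03 (-0.18 to 0.12) for library 6 over 5 and -0.03 (-0.08 to 0.02) for library 8 over 7.

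Id3, the ID protein gene most tied to B cell development and the germinal center, was at 96.2 CPM in library 5 (93.3 to 99.1), 83.9 in library 6 (81.5 to 86.5), 88.3 in library 7 (86.0 to 90.6), and 80.8 in library 8 (78.2 to 83.4). The largest difference was 1.19-fold, between libraries 5 and 8. The order of the libraries for Id3 was not stable, since libraries 5 and 7 were the highest by CPM and libraries 5 and 6 after TMM or DESeq2 scaling. Libraries 6 and 8 did not differ beyond counting error (log2 ratio of 8 over 6, -0.06, -0.12 to 0.01).

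Id1 was rare. It had 4 UMIs in library 5, 8 in library 6, 268 in library 7, and 150 in library 8, or 0.0892, 0.155, 4.21, and 3.28 CPM. Library 7 was 47.2-fold over library 5, with a log2 interval of 4.19 to 7.45, which rests on the 4 UMIs of library 5, since library 7 was 27.2-fold over library 6. Even in library 7, only 2.78% of cells had an Id1 UMI. Id4, the remaining member of the ID family, was listed at 0 in all 18534 cells, which allows a level of up to 0.0146 CPM.

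All 3 E protein genes were highest in libraries 5 and 6. Tcf4, whose product E2-2 is used by mature B cells and plasmacytoid dendritic cells and which lies at chr18:69343356-69689079 (GRCm38, plus strand), was at 159 CPM in library 5 (156 to 163), 163 in library 6 (160 to 167), 54.9 in library 7 (53.1 to 56.8), and 52.1 in library 8 (50.1 to 54.3), a span of 3.13-fold. Tcf12 was at 119 CPM in library 5 (116 to 122), 125 in library 6 (122 to 128), 56.6 in library 7 (54.8 to 58.5), and 51.0 in library 8 (49.0 to 53.1), a span of 2.46-fold. Tcf3, which encodes the E12 and E47 forms of E2A, moved least, at 87.2 CPM in library 5 (84.5 to 89.9), 87.1 in library 6 (84.6 to 89.7), 59.0 in library 7 (57.2 to 61.0), and 52.9 in library 8 (50.8 to 55.1), a span of 1.65-fold. Libraries 5 and 6 did not differ beyond counting error in Tcf3 or Tcf4, and differed little in Tcf12 (log2 ratio 0.08, 0.03 to 0.13). Library 8 was below library 7 by more than counting error in Tcf3 (log2 ratio -0.16, -0.23 to -0.08) and Tcf12 (-0.15, -0.23 to -0.08), but not in Tcf4 (-0.08, -0.15 to 0.00).

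**Figure D1:**
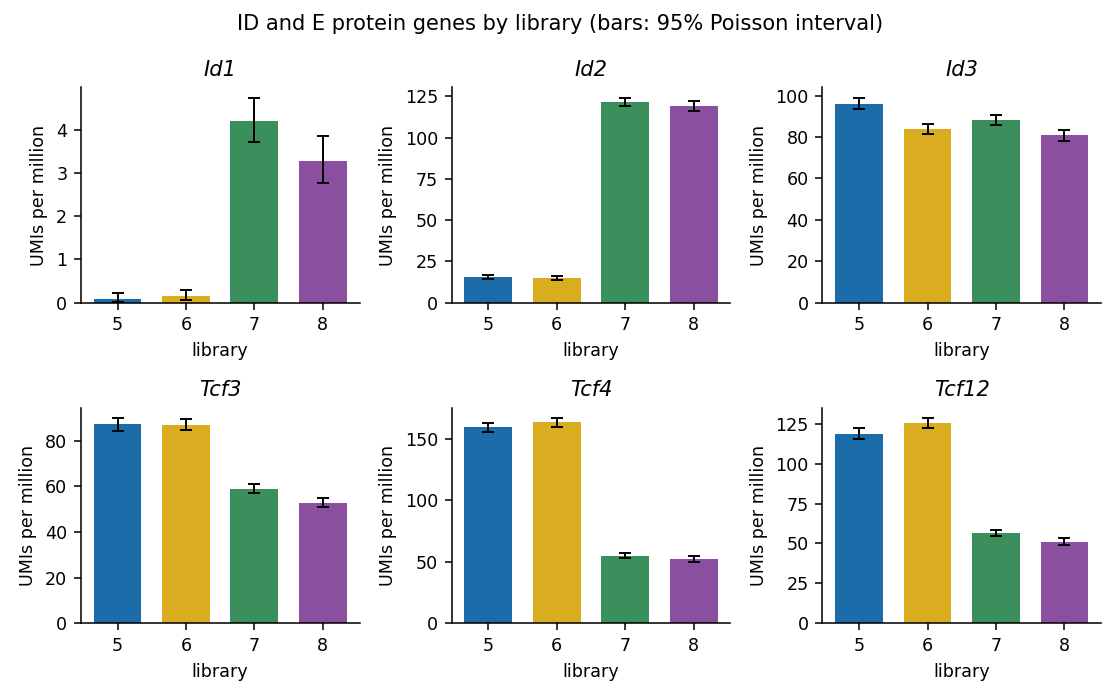
CPM of the 6 genes (vertical axes, different for each gene) in libraries 5 to 8 (horizontal axes), with 95% Poisson intervals that cover counting error only. Id1 and Id2 are highest in libraries 7 and 8, the 3 E protein genes are highest in libraries 5 and 6, and Id3 spans only 1.19-fold.

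At least a 2-fold span between the highest and the lowest library was reached by 4 of the 6 genes (Id1, Id2, Tcf4, and Tcf12). Such a span was common in these libraries, since 35.6% of the 11174 genes with at least 100 UMIs reached it. Such a span with libraries 5 and 6 the 2 highest was found in 17.9% of the genes (the pattern of Tcf4 and Tcf12). With libraries 7 and 8 the 2 highest it was found in 17.4% (the pattern of Id1 and Id2). The span of Id2 lay at percentile 95.4 of all genes and that of Id1 at 99.4, while Tcf4 was at 82.9, Tcf12 at 74.8, Tcf3 at 48.9, and Id3 at 13.2. Id1 reached 100 UMIs only through libraries 7 and 8 (268 and 150 UMIs, against 4 and 8 in libraries 5 and 6). Its 2-fold span and its percentile are thus partly set by this filter. The median log2 span of all genes was 0.74. Relative to library 5, the median gene was higher by 0.16 on the log2 CPM scale in library 7 and by 0.10 in library 8, so that the lower E protein levels there, by 0.56 (Tcf3) to 1.54 (Tcf4) in library 7, were on the other side of the general shift.

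The balance of ID and E protein mRNA was expressed as the UMIs of Id2 and Id3 over those of Tcf3, Tcf4, and Tcf12. Because 3′ counting gives 1 UMI per captured molecule whatever the length of the mRNA, this ratio compares molecules, although capture may differ between genes and the change between libraries is firmer than the ratio itself. The ratio was 0.305 in library 5 (95% interval 0.296 to 0.315), 0.264 in library 6 (0.256 to 0.272), 1.23 in library 7 (1.20 to 1.26), and 1.28 in library 8 (1.24 to 1.32). E protein UMIs outnumbered ID UMIs in libraries 5 and 6, and the reverse held in libraries 7 and 8. The span was 4.86-fold, or 2.28 on the log2 scale (2.22 to 2.34). Library 6 was below library 5 by more than counting error (log2 difference -0.21, -0.28 to -0.15). Library 8 was above library 7 by 0.06 (0.0005 to 0.12), an interval that only just excludes 0. Id2 and Id3 varied among cells by more than random sampling gives (below), so these intervals are too narrow. No difference between libraries 7 and 8 is read from this one.

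Both sides of the ratio contributed. The ID sum was 112, 99.0, 209.7, and 199.8 CPM in libraries 5, 6, 7, and 8, and the E protein sum was 365, 376, 171, and 156 CPM. The ID genes also changed in makeup. Id2 supplied 13.8% and 15.2% of the Id2 and Id3 UMIs in libraries 5 and 6, and 57.9% and 59.6% in libraries 7 and 8, so that the gene with more UMIs was Id3 in the former and Id2 in the latter. With Id3 alone over the E proteins, the ratio was still lower in libraries 5 and 6 (0.263 and 0.224) than in libraries 7 and 8 (0.517 and 0.518), although Id3 itself was nearly level.

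The E proteins changed in makeup as well. Tcf4 UMIs exceeded Tcf3 UMIs by 1.83-fold in library 5 (1.76 to 1.90) and 1.87-fold in library 6 (1.80 to 1.94). In library 7 the ratio was 0.930 (0.888 to 0.974) and in library 8 it was 0.985 (0.931 to 1.04). The ratio of Tcf12 to Tcf3 was 1.36 and 1.44 in libraries 5 and 6 and 0.959 and 0.964 in libraries 7 and 8. In libraries 7 and 8 the 3 genes were thus at almost equal counts. The choice of E protein matters for which side was larger. With Tcf3 as the only E protein, the log2 ratio was above 0 in every library (0.36, 0.18, 1.83, and 1.92), and the span was 1.73.

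**Figure D2:**
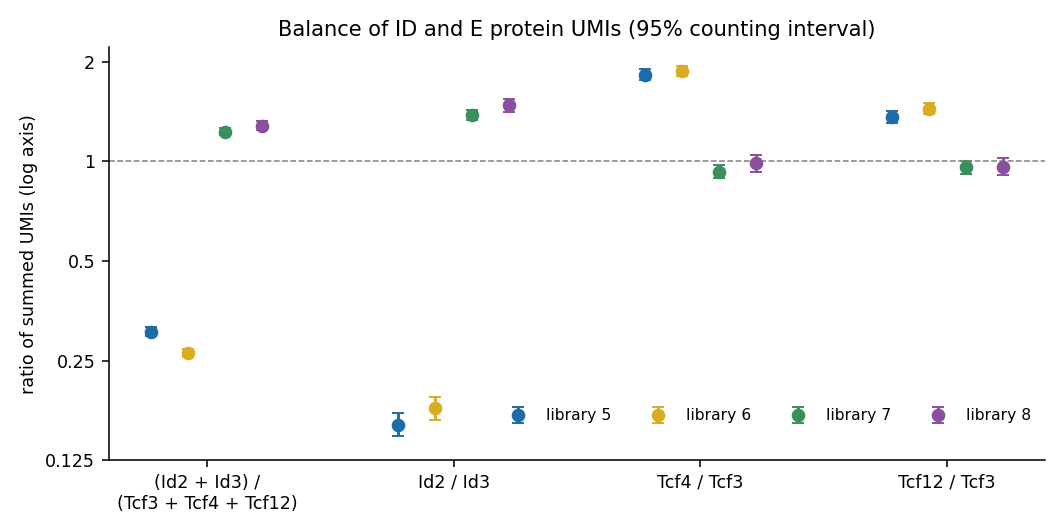
Ratios of summed UMIs (vertical axis, log scale) for the ID to E balance, Id2 to Id3, Tcf4 to Tcf3, and Tcf12 to Tcf3 in libraries 5 to 8 (colors), with 95% counting intervals. The balance and Id2 to Id3 lie below 1 (dashed line) in libraries 5 and 6 and above it in libraries 7 and 8, while Tcf4 to Tcf3 and Tcf12 to Tcf3 lie above 1 in libraries 5 and 6.

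To see whether the balance differed cell by cell, each cell was thinned to 5000 UMIs, which left out 114 to 233 shallower cells per library. More Id2 and Id3 than E protein UMIs were found in 10.3% of cells in library 5 (95% interval 9.36 to 11.3), 10.1% in library 6 (9.25 to 11.0), 31.1% in library 7 (29.9 to 32.4), and 31.5% in library 8 (30.0 to 33.0). The reverse, more E protein UMIs, was found in 68.8%, 68.0%, 35.3%, and 33.3%. The share with at least 1 UMI on both sides was similar in all libraries (27.7%, 25.2%, 26.8%, and 23.3%), and cells with neither were 13.0%, 14.0%, 23.2%, and 26.2%. Without thinning, cells with more ID UMIs were 10.5%, 8.46%, 36.6%, and 36.1%. No class of cells known to lack these genes was defined here, so the share that free RNA gives was not measured.

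**Figure D3:**
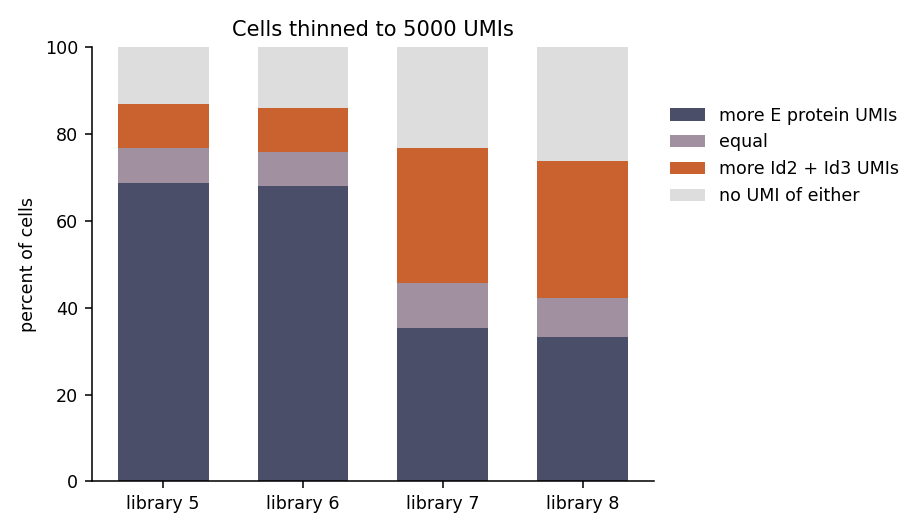
Percent of cells (vertical axis) in libraries 5 to 8 with more E protein UMIs, equal UMIs above 0, more Id2 and Id3 UMIs, or no UMI of either, after thinning each cell to 5000 UMIs. Cells with more E protein UMIs are 68.8% and 68.0% in libraries 5 and 6 and 35.3% and 33.3% in libraries 7 and 8.

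Id2 was uneven among cells. In thinned cells, 5.97% and 5.72% had an Id2 UMI in libraries 5 and 6, and 28.8% in each of libraries 7 and 8. The 10% of cells with the most Id2 held 62.7% of its UMIs in libraries 7 and 8, where 134 and 85 cells had at least 5 Id2 UMIs, against 0 and 3 cells in libraries 5 and 6. The same share in libraries 7 and 8 was 63.8% and 63.9% for Id3 and 53.8% and 55.5% for Tcf4, so it is high for genes at these low counts. The variance of Id2 was 2.92 and 2.83 times its mean in libraries 7 and 8, where a ratio of 1 is what random sampling of molecules gives. Its mean in libraries 5 and 6 (0.07 UMIs in each) was under the 0.2 UMIs set for this measure. Id3 was also uneven, at 1.83, 1.82, 2.20, and 1.79 times in libraries 5, 6, 7, and 8. Among the 2538 to 2952 genes per library with a mean of at least 0.2 UMIs, Id3 was at percentile 95.3 to 97.1 and Id2, in libraries 7 and 8, at 98.2 and 98.0 of this measure. The E proteins stayed between 1.05 and 1.24 times their mean, at percentiles 46.5 to 85.1, and the median of these genes was 1.05 to 1.06. The counting intervals given here for Id2, Id3, and the ID to E balance are therefore too narrow for a comparison between groups of cells or libraries.

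Whether a cell had an ID UMI made little difference to whether it had an E protein UMI, and most in library 5. The mean per thinned cell was at most 0.61 UMIs for Id2 (library 7) and 0.47 for Id3 (library 5). Detection at such counts depends much on sampling, so a link within cells could be missed. In library 5, E proteins were found in 83.7% of cells with an Id3 UMI and 80.7% of cells without. They were found in 85.1% of cells with an Id2 UMI and 81.4% without. In library 6 these 4 shares were 81.4%, 79.7%, 80.2%, and 80.1%, and in library 7 they were 57.1%, 56.1%, 55.9%, and 56.6%. In library 8 these 4 shares were 51.8%, 51.9%, 51.7%, and 52.0%. The share of cells with Id2 was 7.12% with Id3 against 5.49% without it in library 5, and 6.58% against 5.40% in library 6. It was 29.8% against 28.5% in library 7 and 32.2% against 27.8% in library 8. No intervals were computed for the shares in this paragraph, so differences this small are not read as a link.

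Cells were next divided within each library by fixed UMI limits, which mark ranges of a score and not cell types. Across 5 such classes, 120 ratios of a gene inside over outside a class were set up. Of these, 17 (14.2%) reached 1.5-fold with a counting interval that excluded 0 on the log2 scale, 8 higher and 9 lower inside. Over all genes tested in the same classes and libraries, 10.9% did, a share near that of the ID and E protein genes. Those genes had at least 20 UMIs expected inside the class, a filter not set on the 120 ratios, so the shares compare unlike sets. The 120 also include Id1 in library 5 in the G2/M, S phase, Il10, and Ccl3/Ccl4 classes. With 0 UMIs inside, it had no ratio there and could not be called. Among the 17, the calls of Id1 in the G2/M and Ccl3/Ccl4 classes below fell under this filter. So did the call of Id2 in the Ccl3/Ccl4 class of library 6. The shares of genes called in single classes, given below, have the same filter. Cells inside each class held more UMIs than those outside, by medians of, for example, 12784 against 8566 for Il10 in library 5. The ID to E balance was itself higher in the deeper cells of each library (values in the last section). The part of depth in the class ratios was not tested. Cells rich in Jchain, a plasma cell gene, numbered 17 to 45 per library, too few for values.

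Id2 was higher in cells with at least 2 UMIs of Il10, the cytokine used to define many regulatory B cells, than in cells with none, in each of the 4 libraries. In library 7 it was 139.6 CPM in 3144 such cells against 89.4 in 1671 cells without, a 1.56-fold difference, and in library 8 135 against 84.3 CPM, or 1.60-fold. In library 5 it was 26.2 against 14.7 CPM (1.78-fold, 131 cells with Il10), and in library 6 17.9 against 14.7 CPM (1.22-fold, 116 cells), the latter within counting error. By the same limit, 6.8% of all genes tested were higher in the Il10 class in library 5, 1.17% in library 7, and 1.27% in library 8. Id3 was 1.36-fold and 1.40-fold higher in the Il10 class in libraries 7 and 8, and 1.06-fold and 0.889-fold in libraries 5 and 6, where the intervals included 1. The E proteins moved little, between 0.839-fold (Tcf4, library 7) and 1.29-fold (Tcf3, library 6). The ID to E ratio did not go 1 way in all libraries. It was 1.49-fold and 1.55-fold higher in Il10 cells in libraries 7 and 8, with log2 values of 0.49 and 0.55 inside and -0.09 and -0.08 outside, 1.15-fold in library 5, where the interval included 1, and lower in library 6, at 0.855-fold (log2 difference -0.23, -0.45 to -0.002). Il10 at 1 UMI was left out of this comparison, and 2076 cells in library 7 had 1 to 3 Il10 UMIs, near the limit.

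Cell cycle classes gave a different order in different libraries. In cells rich in G2/M genes (at least 10 UMIs per 10000 of a list of 10 genes), Id2 was 1.58-fold and 1.93-fold higher in libraries 5 and 6 but 0.625-fold and 0.885-fold in libraries 7 and 8. In library 7 the levels were 78.0 CPM inside and 125 CPM outside. The share of genes called higher in this class was 14.2% and 14% in libraries 5 and 6, and the share called lower was 5.61% in library 7. Id1 was also lower in this class, at 0.355-fold in library 7 and 0.307-fold in library 8 on 7 and 4 UMIs, where 5.93% of genes in library 8 were called lower. With the limit of the class doubled, Id1 in library 8 was 0.660-fold and no longer called. Tcf3 followed the same split, at 1.34-fold and 1.29-fold in libraries 5 and 6 and 0.870-fold and 0.794-fold in libraries 7 and 8, without reaching the limit of 1.5-fold. Tcf12 was 1.12-fold to 1.26-fold higher in all 4 libraries.

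In cells rich in S phase genes (at least 20 UMIs per 10000 of 12 genes), Id3 was higher in each library, by 1.36-fold, 1.28-fold, 1.43-fold, and 1.35-fold in libraries 5, 6, 7, and 8. The E protein genes did not move together. Tcf3 was also higher there, at 1.39-fold, 1.27-fold, 1.09-fold, and 1.21-fold, in library 7 within counting error. Tcf4 was lower in libraries 5, 6, and 7 (0.639-fold, 0.756-fold, and 0.860-fold) and level in library 8 (1.00-fold). Tcf12 was 0.847-fold, 0.755-fold, 0.885-fold, and 1.02-fold in libraries 5, 6, 7, and 8. Only Tcf4 in library 5 passed the 1.5-fold limit, in a class where 12.3% of genes were called lower. The ID to E ratio was 1.16-fold to 1.49-fold higher in S-high cells over the 4 libraries. Many cells lay near this limit, with 447 within 20% of it in library 7, next to 452 cells inside. The cell cycle classes also overlapped. Of 140 and 177 S-high cells in libraries 5 and 6, only 58 and 65 were outside the G2/M-high and Jchain-high classes. In libraries 7 and 8 these were 344 of 452 and 193 of 266.

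Cells rich in the chemokine genes Ccl3 and Ccl4 (at least 10 UMIs per 10000) had lower Tcf3 in each library, at 0.560-fold, 0.687-fold, 0.723-fold, and 0.754-fold. In libraries 5 and 6, where this class held only 57 and 56 cells, Tcf12 was 0.470-fold and 0.497-fold and Id3 0.570-fold and 0.490-fold of the level outside, against 14.8% and 13.8% of genes called lower. In libraries 7 and 8, with 391 and 295 cells, Tcf12 was 1.06-fold and 0.985-fold and Id3 1.00-fold and 1.19-fold. Id2 was 1.25-fold, 2.35-fold, 1.43-fold, and 1.44-fold of the level outside, of which only library 6 passed the limit, on 26 UMIs and beside 11.2% of genes called higher. Id1 was 1.88-fold higher in this class in library 7 (35 UMIs), where 1.26% of genes were called higher, and 0.651-fold in library 8 (8 UMIs), within counting error.

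**Figure D4:**
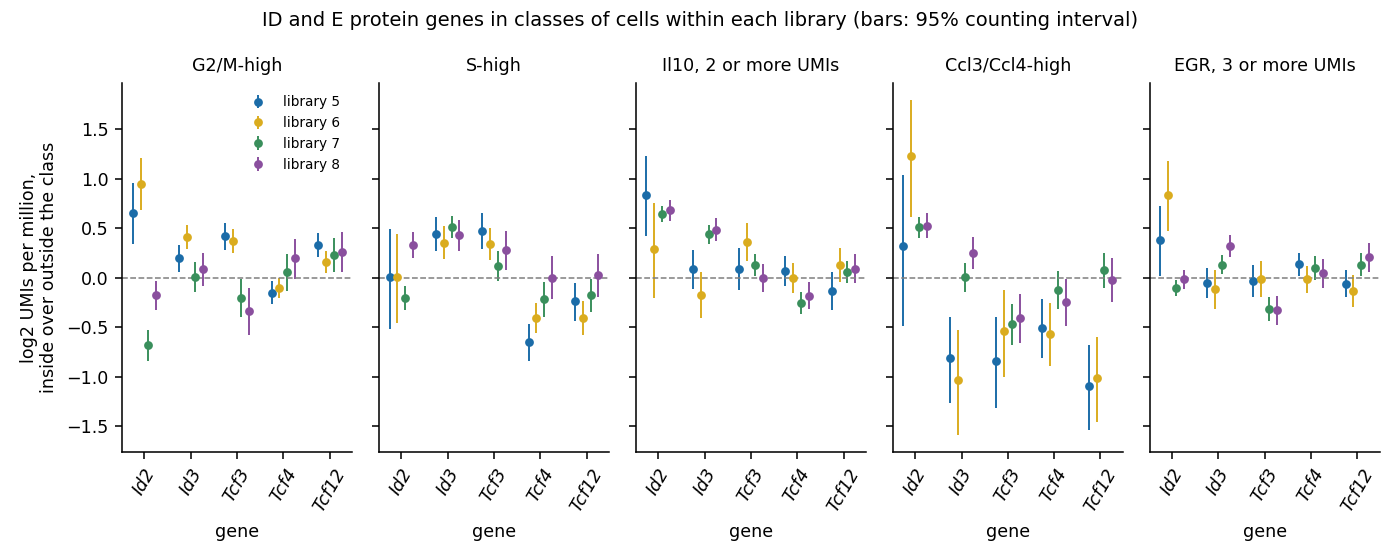
Log2 ratio of CPM inside over outside a class of cells (vertical axis) for 5 genes (horizontal axis) in 5 classes (panels) and libraries 5 to 8 (colors), with 95% counting intervals. Id2 is above 0 in the Il10 class in all 4 libraries, and on opposite sides of 0 in the G2/M-high class in libraries 5 and 6 and libraries 7 and 8.

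EGR transcription factors, immediate early genes after antigen receptor signaling, are known inducers of Id3 in lymphocytes. Egr1 was at 35.7, 20.4, 95.1, and 95.4 CPM and Egr2 at 1.36, 1.26, 11.0, and 10.5 CPM in libraries 5, 6, 7, and 8. Thus 2 of the 3 EGR genes had at least a 2-fold span with libraries 7 and 8 highest, a pattern of 17.4% of all genes. The span of Id3 was 1.19-fold, and whether EGR factors act on Id3 in these cells was not tested. In cells with at least 3 UMIs of Egr1, Egr2, Egr3, or Nr4a1, Id3 was 0.964-fold, 0.924-fold, 1.10-fold, and 1.25-fold of its level in cells with none. Id2 was 1.30-fold and 1.78-fold higher in this class in libraries 5 and 6, and 0.931-fold and 0.991-fold in libraries 7 and 8. In library 6 the share of genes called higher was 3.61%. Tcf3 was 0.805-fold and 0.796-fold in libraries 7 and 8.

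The BMP and TGF-β receptors and SMAD proteins belong to further pathways known to regulate ID genes. In a list of 12 genes, these and the transcription factor Atf3, 10 had at least 100 UMIs and 3 of these a 2-fold span, near the 35.6% of all genes, namely Tgfbr2 (68.0, 71.9, 17.3, and 18.3 CPM), Smad1 (5.20, 5.15, 10.6, and 9.90 CPM), and Bmpr2 (0.981, 0.910, 3.28, and 3.04 CPM) in libraries 5, 6, 7, and 8. Bmpr2 reached 100 UMIs only through libraries 7 and 8, with 44 and 47 UMIs in libraries 5 and 6. The SMADs were otherwise within 1.75-fold. None of 4 genes of ID and E protein turnover had a 2-fold span. The closest was Usp1, which encodes a deubiquitinase that stabilizes ID proteins (50.1, 51.6, 91.7, and 83.4 CPM, 1.83-fold). It was named after its values were seen.

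E proteins are also held down by proteins other than ID. Cbfa2t3, which encodes the corepressor ETO2, was at 26.3 CPM in libraries 5 and 6 and at 0.613 and 0.569 CPM in libraries 7 and 8, a span of 46.2-fold. It reached 100 UMIs only through libraries 5 and 6, with 39 and 26 UMIs in libraries 7 and 8. Among other helix-loop-helix genes, Bhlhe41 was at 13.5, 14.3, 5.74, and 5.56 CPM and Hes1 at 9.72, 8.33, 20.7, and 21.1 CPM. These were 2 of the 4 with at least 100 UMIs that had a 2-fold span, beside 35.6% of all genes.

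Genes known as E protein targets in B cells had the pattern of Tcf4 and Tcf12 more often than that of Id2. Of 14 listed, 11 had at least 100 UMIs and 9 of these a 2-fold span, 8 with libraries 5 and 6 highest and 1, the cell cycle inhibitor Cdkn1a, with libraries 7 and 8 highest (8.03, 7.03, 15.4, and 13.3 CPM, named after its values were seen). A 2-fold span was reached by 35.6% of all genes, and by 17.9% with libraries 5 and 6 highest. The median log2 span was 1.69 in the list against 0.74 over all genes. The antigen receptor subunit Cd79a was at 3072, 3239, 1057, and 1033 CPM in libraries 5, 6, 7, and 8, and its partner Cd79b at 2158, 2226, 294, and 307 CPM. The transcription factor Pax5 was at 174, 183, 60.8, and 60.3 CPM and the surrogate light chain relative Vpreb3 at 197, 189, 18.3, and 19.4 CPM. The recombinase genes Rag1 and Rag2 had 1 UMI each, and Igll1 was listed at 0. The list is not independent of B cell identity, since 5 of the 6 B cell markers, 4 of them on this list, had the same pattern.

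The genes most like each member were found by Pearson correlation of log2(CPM + 1) over 12 sums of cells (4 libraries in 3 classes each, G2/M-high, S-high, and the rest) among 2338 genes with at least 50 CPM over all cells together. These points share libraries, so the values are descriptive. Of the genes named next, Il33, Ptms, Sp100, Traf3ip3, and Siglecg passed this level only through the libraries where each was high. Id2 was closest to Il33 (r = 0.98), a cytokine gene at 3.10, 3.08, 98.4, and 94.5 CPM in libraries 5, 6, 7, and 8, followed by Ptms and Sar1a (both 0.98). Tcf4 was closest to Sp100 (r above 0.99, with 203.8, 219, 33.1, and 30.8 CPM), Traf3ip3, and Siglecg, an inhibitory receptor of B cells (0.99 each). Tcf12 was closest to Sri, Grk2, and Clic1 (0.99 each), and Tcf3 to Hdac1 (0.99), Zfp706, and Eml4 (0.98 each). Id3 had few close neighbors, with Rfc2 (0.90), Rdx (0.89), and Zbtb8os (0.89) first. Above 0.9 were 281 genes for Id2, 270 for Tcf4, 198 for Tcf12, 41 for Tcf3, and 2 for Id3. The order of these counts is that of the spans between libraries, from 8.07-fold for Id2 to 1.19-fold for Id3, so they are not a separate result. Tcf4 and Tcf12 followed each other (0.97), and Id2 ran opposite to Tcf4 (-0.92), while Id3 was near 0 with Tcf4 (0.08).

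Markers of plasma cells and of other cell types moved with the libraries. Of 7 plasma cell markers, 6 had at least 100 UMIs and 4 a 2-fold span in different directions, beside 35.6% of all genes. These were Mzb1 at 1441, 1548, 154, and 157 CPM, Sdc1 at 0.201, 0.213, 7.45, and 6.15 CPM, Derl3 at 20.6, 21.8, 11.5, and 9.83 CPM, and Jchain at 36.3, 83.3, 70.9, and 30.1 CPM in libraries 5, 6, 7, and 8. Sdc1 reached 100 UMIs only through libraries 7 and 8, with 9 and 11 UMIs in libraries 5 and 6. Xbp1 (84.7, 91.7, 112, and 107 CPM) and Txndc5 (30.7, 34.5, 33.8, and 29.3 CPM) stayed under a 2-fold span. The summed level of the 7 markers was 1614, 1779, 390, and 339 CPM, with Mzb1 the largest part in each library. Their part in the ID to E balance was not tested, beyond leaving out the Jchain-high cells together with the G2/M-high and S-high cells, which gave a log2 span of 2.33. Cells with at least 2 UMIs of T, NK, myeloid, dendritic, or erythroid markers numbered 288, 351, 83, and 46 in libraries 5, 6, 7, and 8. Of these 23 markers only Il7r (26.6, 26.9, 5.26, and 5.36 CPM), which is also on the E protein target list, and Flt3 (4.17, 5.36, 0.189, and 0.241 CPM) had at least 100 UMIs. Flt3 reached this number only through libraries 5 and 6, with 12 and 11 UMIs in libraries 7 and 8. The summed level of the T cell markers was 0.424 to 0.788 CPM and that of the myeloid markers 0 to 0.542 CPM. Without those cells the span of the ID to E balance was 2.27 on the log2 scale, against 2.28 with them. Il7r had 3160 UMIs and Flt3 487, and no other of these markers more than 83, so this does not show the part of other cell types.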

How the data were processed

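Deposited values were UMI counts per gene and cell. Per the labels and the study's methods, the authors prepared 10x Chromium Single Cell 3′ v3 libraries, counted UMIs with Cell Ranger (version 3.1.0, mm10), and combined libraries, a step that can thin reads to like depth. The matrix has 35989 columns for 19920 listed barcodes. The last 19920 columns were used, since expression shifted at column 25835, where library 7 then starts (percentile 99.995 of all columns). At the starts of libraries 6 and 8 the shift was at percentiles 93.8 and 96.3. The other 16069 columns, not tied to a sample, were not used.

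UMIs were summed per library and divided by all UMIs (CPM). Intervals at 95% are exact Poisson (CPM), exact conditional (ratios of counts; normal on the log scale for differences between ratios) or Clopper-Pearson (shares), from SciPy (version 1.17.1), and cover counting error only. No test was made, since libraries could not be tied to samples. Counts under a floor of 3, 0 included, were set to 3 for spans, shares of all genes, and the limit given for Id4. Classes needed 50 cells. The calculation of spans was tested on simulated data. No doublet caller was run; cells with over 25000 UMIs were left out as an alternative. Scaling alternatives used edgeR (version 4.0.16) and DESeq2 (version 1.42.0).

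All 6 genes were named. From each gene list, genes with at least 100 UMIs and a 2-fold span were named, up to the 4 with the most UMIs, plus Id4, Egr1, and Egr2. Nearest genes were the 3 with the highest correlation. Part of the list of E protein repressors is not reported here. The members and lists were chosen with earlier results of these data known. Gene positions are from GENCODE vM21 on GRCm38, the build of mm10.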

Additional observations from a re-analysis of the deposited data

How the results depend on the processing

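The direction of the ID to E balance, lowest in library 6, and the 4 genes with a 2-fold span did not depend on most choices. The log2 span of 2.28 was 2.22 to 2.33 in 11 alternatives, and left this range with under 5% mitochondrial UMIs (2.19), with only Tcf3 (1.73) or only Tcf4 (2.66) as the E protein, and in cells under (2.16) or at or above (2.37) the median UMIs of their library, a division chosen after seeing the data. In each library the log2 balance was higher in cells at or above that median than in cells under it. It was 0.40 against 0.12 in library 7 and 0.50 against 0.08 in library 8. In library 5 it was -1.68 against -1.78 and in library 6 -1.87 against -2.05. With a library left out, the span was 2.07 to 2.28. The span is that of library 8 over library 6, so leaving out library 5 or 7 could not change it. The runs without library 5, 7, or 8 are counted among the 11 alternatives. With only Tcf3, the log2 balance of libraries 5 and 6 turned positive (0.36 and 0.18), while it stayed negative with only Tcf4 or only Tcf12. In libraries 5 and 6, Tcf3 had fewer UMIs (3909 and 4498) than Id2 and Id3 together (5003 and 5111), while Tcf4 and Tcf12 each had more. Why the span moved under the other choices was not tested. The count of genes with a 2-fold span was 4 under every scaling. It was also 4 without each library in turn, which leaves a library of each pair (5 and 6, 7 and 8) in place. With a 1.5-fold limit it was 5, but the median of all genes also passed that limit, at a log2 span of 0.74. TMM scaling lowered library 7 by 0.17 and library 8 by 0.11 relative to library 5 on the log2 scale. The share of all genes with a 2-fold span was 42.9% with a filter of 10 UMIs and 34.2% with 1 UMI. The difference between libraries in cells with more ID than E protein UMIs was 21.4 percentage points at 5000 UMIs, 16.3 at 3000 UMIs, and 28.1 without thinning, so it depends on depth. Of the class ratios, 17 of 120 were called (14.2%, against 10.9% over all genes with at least 20 expected UMIs). With limits 2 times as high, where fewer classes reached 50 cells, 9 of 66 were called. Without cells over 25000 UMIs, 18 of 120 were called. These totals include ratios of Id1 in library 5 that had no value, with 0 UMIs inside the class. For these alternatives no share of all genes is given. No paired analysis was possible because the barcodes carry no sample or replicate number.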
